A study of Mus musculus with 4 samples.

Results

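The genes described are Mir99ahg, the host transcript of the microRNA miR-99a, and 9 genes of the machinery that makes and uses microRNAs: Drosha, Dgcr8, Xpo5, Dicer1, Tarbp2, Ago1, Ago2, Ago3 and Tnrc6a. They were chosen by name and function, with earlier results of these data known. All 10 were found among the 45232 gene rows of the count files. All 10 had counts in each of the 4 libraries and passed the filter on low counts, which kept 15320 genes. The RNA came from donor-derived (GFP+) mouse LSK cells, a sorted fraction that lacks lineage markers, bears Kit and Sca-1, and holds blood stem cells and early progenitors. Mice had received GFP+ long-term haematopoietic stem cells (LT-HSCs), either with a knockdown of miR-99 (miR-99 KD, the knockdown libraries) or of the comparison group that the labels name Scr, and the sort followed 3 months after transplantation. Each group had 2 mice and 2 libraries, and both share the transplantation, the GFP mark and the sort. How the knockdown was delivered, and the strain, age, sex and conditioning of the mice, are not given in the labels used here.

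A microRNA starts as part of a longer nuclear transcript, the host or primary transcript. Drosha, held by its partner Dgcr8, cuts a hairpin out of it, and exportin 5 (Xpo5) carries the hairpin to the cytoplasm. There Dicer1, with its partner Tarbp2, cuts the hairpin to a short duplex, and an Argonaute protein keeps 1 strand and uses its seed, bases 2 to 8, to find target messages. Tnrc6 proteins bind Argonaute and bring in the enzymes that shorten poly(A) tails. Loss of Dicer1 is known to impair blood stem cells.

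Gene counts per library ran from 27295197 to 32350590. Kit, a marker of the sort, stood between 670 and 1280 CPM (read counts scaled to a common library size, here with TMM factors), and Ly6a, which encodes Sca-1, between 12.4 and 46.5 CPM. For both genes the highest knockdown value was below the lowest Scr value, narrowly so for Ly6a. Markers listed here for other blood cell types were present. The summed level of 12 neutrophil markers was 29320 CPM in knockdown 1 and 5308 to 8357 CPM in the other libraries, and all 12 were highest in knockdown 1. The sum of 12 B cell markers was 337 CPM in knockdown 1 and 45.8 to 98.5 CPM in the others. The sum of 12 erythroid markers was 10840 to 11730 CPM in the knockdown and 6114 to 8097 CPM in Scr. The sum of 10 T and NK cell markers was 126 to 168 CPM in the knockdown and 223 to 229 CPM in Scr. Most of it was Nkg7, at 207 and 194 CPM in Scr against 146 and 114 in the knockdown. By contrast, 7 of the 10 were highest in knockdown 1, at 2.65 CPM or less. Ncr1 had 0 counts in all libraries. The sum of 10 macrophage markers was 355 to 619 CPM in the knockdown and 214 to 518 CPM in Scr. None of the other markers in these lists was at 0 in every library. In bulk RNA of this kind, fewer cells of a type and less RNA per cell cannot be told apart.

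The labels name the knockdown miR-99 and do not say which members of its family it reached. The sequences of this family, whose 3 mature forms share a seed, follow. They are given 5′ to 3′ from RefSeq (GRCm38.p6), with the seed in capitals:
mmu-miR-99a-5p: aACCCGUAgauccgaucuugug
mmu-miR-99b-5p: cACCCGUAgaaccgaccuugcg
mmu-miR-100-5p: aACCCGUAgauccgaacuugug
Counted from the 5′ end, miR-100 differs from miR-99a only at U16A, and miR-99b differs at A1C, U11A, U16C and U21C, all outside the seed. Mir99a lies on chromosome 16 (mature form at chr16:77598940-77598961, plus strand, GRCm38.p6), inside an intron of Mir99ahg, a non-coding gene that GENCODE M21 places at chr16:77236317-77773427 on the plus strand. Mir99b lies on chromosome 17 and Mir100 on chromosome 9. The same host carries microRNAs of 2 other families in its introns, let-7c at 710 bases and miR-125b at 47317 bases beyond miR-99a:
mmu-let-7c-5p: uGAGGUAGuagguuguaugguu
mmu-miR-125b-5p: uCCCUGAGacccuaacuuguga
The gene rows of Mir99a, Mir99b, Mir100, Mirlet7c-1 and Mir125b-2 held 0 counts in all 4 libraries, which allows up to 0.0897 to 0.114 CPM at a limit of 3 counts. The mature microRNAs, and with them the depth of the knockdown, were not measured here.

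The knockdown libraries held less Mir99ahg (ENSMUSG00000090386) than the Scr libraries. Its level was 11.9 CPM in Scr 1, 14.1 in Scr 2, 5.0 in knockdown 1 and 7.34 in knockdown 2. The groups did not overlap, and the mean was 13.0 ± 1.6 CPM in Scr against 6.17 ± 1.7 in the knockdown (SD, n = 2). The log2 difference was -1.07 ± 0.31 (SE, 2 libraries a group), which is 0.476 of the Scr level. It did not pass edgeR's quasi-likelihood test, with a Benjamini-Hochberg adjusted p of 0.248, nor DESeq2, with an adjusted p of 0.0737. Among all genes tested both knockdown libraries lay below both Scr libraries in 26%, and edgeR called 0%. With 2 libraries a group, an exact two-sided permutation test cannot give a p under 0.333. Leaving out each library in turn gave log2 differences from -0.82, without knockdown 1, to -1.37, without knockdown 2, and none passed.

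Few reads were counted in the other gene rows of the host locus. GENCODE M21 places 12 other rows on the same strand inside the introns of Mir99ahg, all of uncertain status and taken here by position after the first results were known. Their summed counts were 135 in Scr 1, 83 in Scr 2, 37 in knockdown 1 and 47 in knockdown 2. As CPM the sums were 4.03, 2.85, 1.40 and 1.77. Each knockdown library was below each Scr library, an order found in 26% of all genes tested. Some of the rows, such as C130023A14Rik and Gm37606, overlapped between the groups. These 12 rows share no exon base with Mir99ahg and were not tested. Since the strand setting of the counting is not given, the strand of these reads is not known. Of rows on the other strand, 9430053O09Rik held the most, at 29 and 17 counts in Scr against 6 and 22 in the knockdown, with overlap. Reads of the locus that fell in no gene row cannot be seen here.

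**Figure D1:**
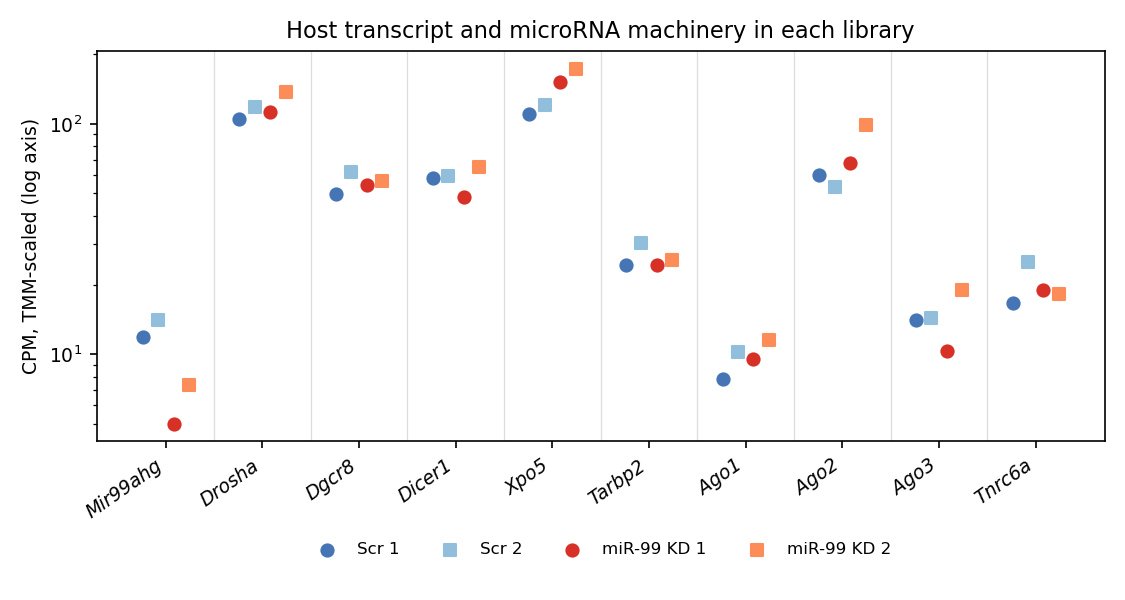
TMM-scaled CPM of the host transcript and the 9 machinery genes (log axis) in each library, circles for replicate 1 and squares for replicate 2. Mir99ahg sits lower in the knockdown libraries (5.0 and 7.34 CPM) than in the Scr libraries, Xpo5 and Ago2 sit higher, and the other 7 genes overlap between the groups.

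Markers of long-term stem cells moved with Mir99ahg. On the scale of log2(CPM + 0.5) minus the mean of the 4 libraries, Mir99ahg stood at 0.40 in Scr 1, 0.64 in Scr 2, -0.77 in knockdown 1 and -0.26 in knockdown 2. The median of 16 stem cell markers stood at 0.74, 0.24, -0.48 and -0.27. Of these 16 genes, 10 were lower in both knockdown libraries, 1 was higher and 5 overlapped, beside 26% lower and 24.5% higher over all genes. Their summed level was 1011 to 1201 CPM in Scr against 534 to 693 CPM in the knockdown. This marker list, like the others, was chosen with earlier results of these data known. The part of stem cell content in the host transcript's difference was not tested.

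**Figure D2:**
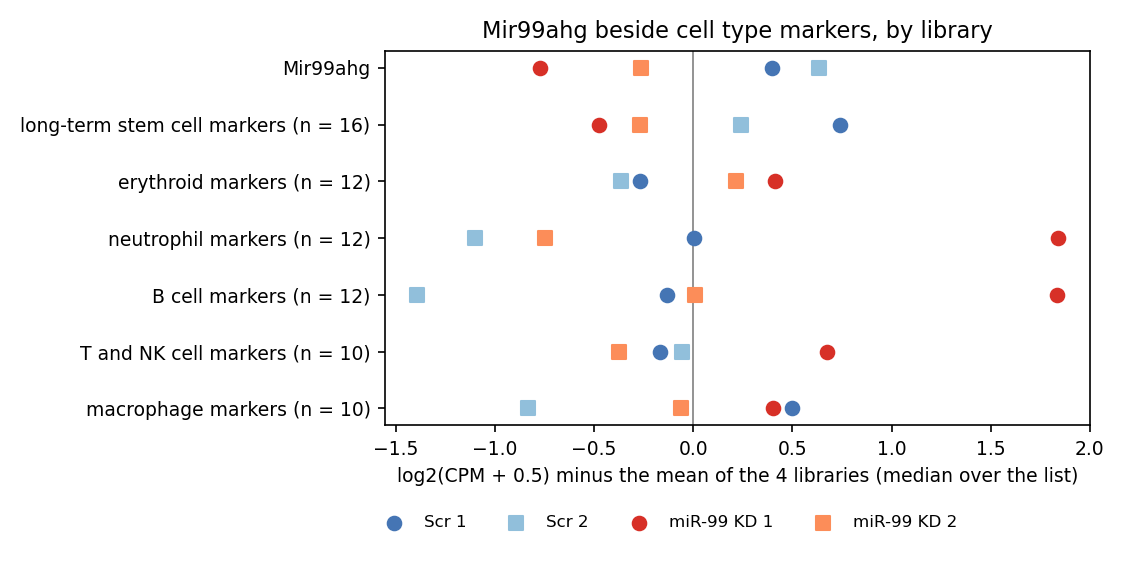
Mir99ahg and the median of each marker list in each library, as log2(CPM + 0.5) minus the mean of the 4 libraries. Mir99ahg and the stem cell markers are above 0 in both Scr libraries and below 0 in both knockdown libraries, while neutrophil and B cell markers are far higher in knockdown 1, at 1.84 each, than in the other libraries.

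The genes whose pattern over the 4 libraries was closest to that of Mir99ahg were Cbx7, Osbpl1a, Adora2a, Gm13012 and Hdac9. Closeness was the Euclidean distance between centred log2(CPM + 0.5) values, over 10731 genes at a mean of 5 CPM or more, and it ran from 0.0817 for Cbx7 to 0.123 for Hdac9. Cbx7, a Polycomb chromobox protein known for its part in stem cell self-renewal, stood at 22.9 and 28.7 CPM in Scr against 10.5 and 14.3 in the knockdown. Hdac9, a class II histone deacetylase, stood at 11.7 and 12.9 CPM in Scr against 4.36 and 7.04 in the knockdown. With 4 libraries the likeness describes these samples only.

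Of the nuclear step, neither Drosha nor Dgcr8 separated the groups. Drosha (ENSMUSG00000022191), the nuclease, was 105 CPM in Scr 1, 119 in Scr 2, 112 in knockdown 1 and 138 in knockdown 2, a log2 difference of 0.16 ± 0.16 (SE, 2 libraries a group). Dgcr8 (ENSMUSG00000022718), the RNA-binding partner of Drosha, was 49.7 and 61.7 CPM in Scr against 54.2 and 56.5 in the knockdown. Both knockdown values of Dgcr8 lay between the 2 Scr values, and its log2 difference was -0.01 ± 0.17 (SE). The edgeR adjusted p was 0.658 for Drosha and 0.987 for Dgcr8. In GENCODE M21, 10.7% of the exon bases of Dgcr8 are shared with Trmt2a on the other strand, and reads there may be counted for neither gene.

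Xpo5 (ENSMUSG00000067150), the exporter of hairpin precursors, was the member with the smallest error among those whose groups did not overlap. It stood at 111 CPM in Scr 1, 121 in Scr 2, 151 in knockdown 1 and 174 in knockdown 2. Both knockdown libraries were above both Scr libraries, as in 24.5% of all genes tested. The mean was 116 ± 6.9 CPM in Scr against 163 ± 16 in the knockdown (SD, n = 2), and the log2 difference was 0.49 ± 0.14 (SE), or 1.40-fold. It ran from 0.39 without knockdown 2 to 0.59 without knockdown 1. Its edgeR quasi-likelihood p was 0.017 before and 0.250 after adjustment, and the DESeq2 adjusted p was 0.0616, so it was not called. The erythroid markers were also higher in the knockdown libraries, in 9 of 12 genes without overlap, and their part in the differences of Xpo5 and Ago2 was not tested.

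Of the cytoplasmic cutting step, Dicer1 and Tarbp2 also overlapped between the groups. Dicer1 (ENSMUSG00000041415) was 58.2 and 59.6 CPM in Scr, and the knockdown libraries lay on either side, at 48.0 and 64.8 CPM. Its log2 difference was -0.06 ± 0.20 (SE, 2 libraries a group), with an edgeR adjusted p of 0.904. Tarbp2 (ENSMUSG00000023051), the double-stranded RNA-binding partner of Dicer, was 24.5 and 30.5 CPM in Scr against 24.5 and 25.7 in the knockdown. Its log2 difference was -0.13 ± 0.20 (SE), with an edgeR adjusted p of 0.785.

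Among the Argonaute genes, Ago2, whose protein can itself cut a target RNA, was higher in both knockdown libraries. Ago2 (ENSMUSG00000036698) stood at 60.0 CPM in Scr 1, 53.4 in Scr 2, 67.4 in knockdown 1 and 99.03 in knockdown 2. The groups did not overlap, but knockdown 1 was closer to the Scr libraries than to knockdown 2. The mean was 56.7 ± 4.6 CPM in Scr against 83.2 ± 22 in the knockdown (SD, n = 2), a log2 difference of 0.55 ± 0.22 (SE) or 1.47-fold. It did not pass edgeR, at an adjusted p of 0.329, or DESeq2, at 0.190. The difference rested on knockdown 2. Without knockdown 1 the log2 difference was 0.80, and without knockdown 2 it was 0.25.

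Ago2 was also the only member whose annotated 3′ untranslated region holds a match to the miR-99 seed. The match, TACGGGT, begins at base 768 of the longest annotated region, which has 11064 bases. It is shown in capitals with 9 bases on either side, as the only such match among the members:
Ago2: tctaaagaaTACGGGTctgtggtga
The searched letters occur in the longest 3′ untranslated region of 1.12% of 20359 genes, and of 4.48% of the 558 genes whose region is 5539 to 19419 bases long, between 0.5 and 2 times that of Ago2. The other 8 coding members held no match. Among 64 other pathway genes 1 held it, Trim71, a stem cell protein that had 5 counts in Scr 1 and 0 in the other libraries. Ago2 also held 3 matches to the let-7 seed (CTACCTC) and 2 to the miR-125 seed (CTCAGGG), the seeds of the other microRNAs in the Mir99ahg introns. Those letters are common in regions of this length. The let-7 match occurs in 9.21% of all genes and 40.3% of the 558, and the miR-125 match in 13.4% and 43.7%. Of the other members, Ago3 and Tarbp2 held 1 let-7 match each and Dicer1 held 1 miR-125 match. Sense-strand sequence of GENCODE M21 was searched. A match is a description of these letters, and whether miR-99 acts on Ago2 in these cells was not tested.

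Ago1, Ago3 and Ago4 did not separate the groups. Ago1 (ENSMUSG00000041530) was 7.80 and 10.2 CPM in Scr against 9.55 and 11.5 in the knockdown, a log2 difference of 0.23 ± 0.28 (SE, 2 libraries a group). Ago3 (ENSMUSG00000028842) was 14.1 and 14.3 CPM in Scr, and the knockdown libraries lay on either side, at 10.3 and 19.01. Its log2 difference of 0.05 ± 0.34 (SE) took both signs when a library was left out, from -0.46 without knockdown 2 to 0.42 without knockdown 1, and was -0.041 with scaling by library totals. Ago4, the fourth Argonaute, was 5.11 and 6.93 CPM in Scr against 5.38 and 5.01 in the knockdown. By edgeR the adjusted p was 0.727 for Ago1, 0.960 for Ago3 and 0.778 for Ago4.

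Levels between genes were compared as RPKM, the CPM divided by the kilobases of a gene's merged GENCODE M21 exons. By this measure Ago2 made up the greater part of Argonaute RNA in every library, with 62.7% in Scr 1, 54.9% in Scr 2, 65.1% in knockdown 1 and 68.2% in knockdown 2. Its share was higher in both knockdown libraries. The share of Ago1 was 13.7% to 18.2%, that of Ago3 8.46% to 12.5% and that of Ago4 6.97% to 14.4%. The summed Argonaute level was 6.82 and 6.93 RPKM in Scr, 7.38 in knockdown 1 and 10.3 in knockdown 2, so the sum, like Ago2, was highest in knockdown 2. No test was made of these shares.

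Tnrc6a (ENSMUSG00000052707), a scaffold that binds Argonaute, was 16.8 CPM in Scr 1, 25.2 in Scr 2, 18.99 in knockdown 1 and 18.2 in knockdown 2. Both knockdown values lay between those of Scr, and the log2 difference was -0.17 ± 0.26 (SE, 2 libraries a group) with an edgeR adjusted p of 0.783. Of its relatives, Tnrc6c was lower in both knockdown libraries, at 29.7 and 35.9 CPM in Scr against 22.5 and 22.1 in the knockdown, with a log2 difference of -0.56 ± 0.19 (SE) and an edgeR adjusted p of 0.290. Tnrc6b overlapped, at 38.2 and 48.3 CPM in Scr against 61.0 and 36.3 in the knockdown. As a share of summed RPKM of the 3 genes, Tnrc6c took 44.0% and 41.0% in Scr and 30.1% and 36.7% in the knockdown. Tnrc6b took 30.8% and 29.9% in Scr and 44.2% and 32.7% in the knockdown, and Tnrc6a 25.1% to 30.6% with overlap. The share of Tnrc6b was thus higher in both knockdown libraries although its CPM overlapped.

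**Figure D3:**
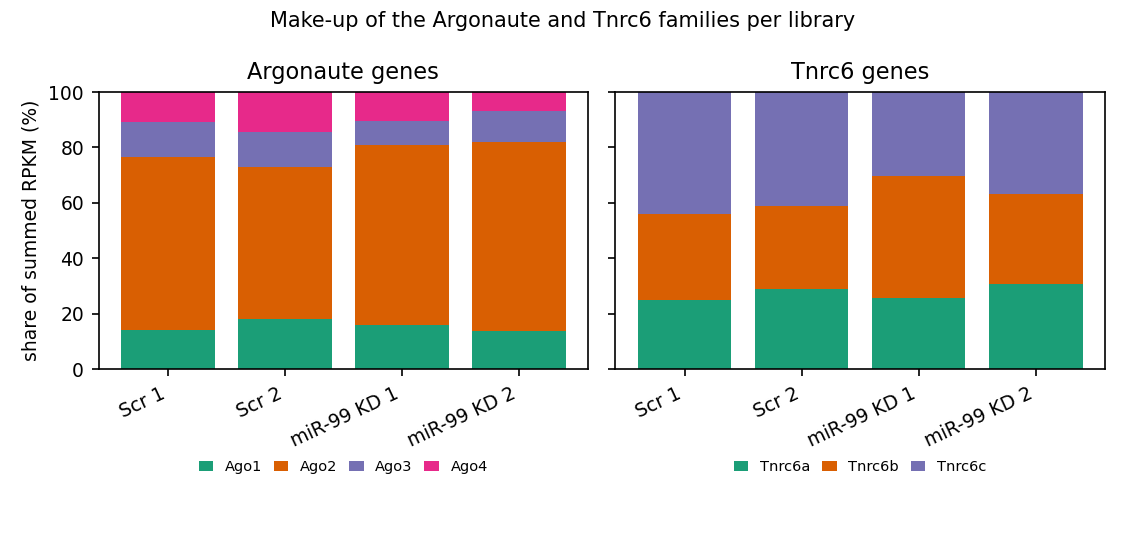
Share of each gene in the summed RPKM of the 4 Argonaute genes (left) and of the 3 Tnrc6 genes (right), as stacked bars that add to 100% in each library. Ago2 is the widest band in every library, from 54.9% to 68.2%, and the band of Tnrc6c is narrower and that of Tnrc6b wider in both knockdown libraries.

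In order of mean RPKM over the 4 libraries the members ran from Xpo5 (20.3), Drosha (19.9), Dgcr8 (7.21), Tarbp2 (5.78), Ago2 (4.99) and Dicer1 (3.44) to Tnrc6a (1.56), Ago1 (1.20), Ago3 (0.872) and Mir99ahg (0.670). The lowest library of Drosha was above the highest of Dgcr8, and the lowest of Dicer1 was above the highest of Tnrc6a. All other neighbours in the order overlapped in their ranges. With the longest annotated transcript as the length in place of merged exons, the order of Xpo5, Drosha, Dgcr8 and Tarbp2 was the same, Dicer1 stood above Ago2, and Mir99ahg, at 2.80 RPKM, stood above Tnrc6a, Ago1 and Ago3. This second length was added after the data were seen.

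Counted over the members, edgeR called 0 of 10, where it also called 0% of all genes tested, and limma-voom and DESeq2 called 0 of 10, where DESeq2 called 5.79% of all genes, 4.13% lower and 1.66% higher. At an unadjusted p under 0.05 edgeR counted 1 member lower, Mir99ahg, and 1 higher, Xpo5, where the shares of all genes were 9.63% and 5.97%. Both knockdown libraries lay below both Scr libraries in 1 member and above in 2, with 7 overlapping, against 26% and 24.5% of all genes. The 9 protein-coding members had a median log2 difference of 0.05 and ranged from -0.17 to 0.55, beside a median of 0.02 over all 15320 genes. These counts of members are near those of all genes. The count of 2 at an unadjusted p could change when a library was left out, and the count over all genes changed too. Without knockdown 1 the log2 difference of Ago2 was 0.80.

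Beyond the members, 64 other genes of the pathway were listed, 62 of which could be tested. With all 4 libraries edgeR called 0 of them. The calls of edgeR changed when a knockdown library was left out, over all genes as well as in these lists. Without knockdown 1 the log2 difference was 1.58 for Hsp90aa1, 0.88 for Hsp90ab1, 0.76 for Pnpt1, 0.70 for Ncbp1 and Dis3, and -0.90 for Adar. Without knockdown 2 it was -1.11 for Tut4 and 2.85 for Lin28a. With no filter on low counts edgeR called Adar (0.028), Hsp90aa1 (0.000457) and Lin28a (0.0461), where it called 4.18% of all genes. At an unadjusted p under 0.05 it counted 5 lower and 5 higher, or 8 lower and 3 higher with library totals as the only scaling. Both knockdown libraries lay below both Scr libraries in 14 of the 62 and above in 21, beside 26% and 24.5% of all genes, and the median log2 difference was 0.08. The count of 10 became 3 without Scr 1, 0 without Scr 2, 17 without knockdown 1 and 18 without knockdown 2. Over all genes the count at an unadjusted p went the same way, from 15.6% of genes tested to 7.15%, 4.73%, 26.3% and 18.0%.

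In the list of nuclear processing and export, 8 of 14 genes were higher in both knockdown libraries, 2 were lower and 4 overlapped, beside 24.5% higher and 26% lower over all genes tested. Ncbp1, a subunit of the nuclear cap-binding complex, stood at 223 and 203 CPM in Scr against 277 and 346 in the knockdown, a log2 difference of 0.55 ± 0.16 (SE, 2 libraries a group). Srrt, which links that complex to Drosha, stood at 217 and 221 CPM in Scr against 309 and 282 in the knockdown. Ddx17, a helicase that binds Drosha, stood at 34.2 and 25.3 CPM in Scr against 36.2 and 52.6 in the knockdown. Adar, the enzyme that edits adenosine in double-stranded RNA, went the other way, at 51.3 and 60.6 CPM in Scr against 36.05 and 29.9 in the knockdown, with a log2 difference of -0.76 ± 0.19 (SE). None passed edgeR with all 4 libraries, at adjusted p from 0.227 to 0.368. DESeq2 called Ncbp1 higher, at an adjusted p of 0.0443, and Adar lower, at 0.0236.

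In the list of dicing, loading and Argonaute partners, 4 of 11 genes were higher in both knockdown libraries, 2 were lower and 5 overlapped, where all genes gave 24.5% and 26%. The higher ones included both cytosolic forms of Hsp90, the chaperone that helps load small RNA into Argonaute. Hsp90aa1 stood at 369 and 300 CPM in Scr, 446 in knockdown 1 and 1000 in knockdown 2, and Hsp90ab1 at 1793 and 1906 CPM in Scr against 2293 and 3398 in the knockdown. Both were highest in knockdown 2, as were the members Drosha, Dicer1, Xpo5, Ago1, Ago2 and Ago3. The members Dgcr8, Tarbp2, Tnrc6a and Mir99ahg were highest in Scr 2. Mov10, an RNA helicase that binds Argonaute, stood at 35.2 and 44.6 CPM in Scr against 25.8 and 25.7 in the knockdown. Snd1, a nuclease found with the silencing complex, stood at 261 and 294 CPM in Scr against 237 and 229 in the knockdown. None passed edgeR with all 4 libraries, at adjusted p of 0.260 to 0.417 for these 4 genes. The log2 difference of Hsp90aa1 was 1.11, 1.58 without knockdown 1 and 0.42 without knockdown 2, and that of Hsp90ab1 was 0.62, 0.88 and 0.31. DESeq2 called Hsp90aa1 alone in this list, at an adjusted p of 0.0302.

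In the list of silencing and mRNA decay, 7 of 27 genes were higher in both knockdown libraries, 7 were lower and 13 overlapped, near the 24.5% and 26% of all genes. Ajuba, a LIM protein that binds Argonaute, had the lowest log2 difference of the list, -1.77 ± 0.49 (SE, 2 libraries a group), at low levels of 3.44 and 3.95 CPM in Scr against 1.37 and 0.791 in the knockdown. Pan2, a deadenylase recruited by Tnrc6, stood at 85.4 and 116 CPM in Scr against 78.0 and 58.9 in the knockdown. Pabpc1, the poly(A)-binding protein, stood at 407 and 338 CPM in Scr against 471 and 563 in the knockdown, a log2 difference of 0.47 ± 0.17 (SE). None of the 27 passed edgeR or DESeq2.

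In the list of microRNA tailing and turnover, 10 of 12 genes could be tested. Of these, 3 were lower in both knockdown libraries, 2 were higher and 5 overlapped, near the 26% and 24.5% of all genes. None passed edgeR with all 4 libraries, or DESeq2. Zswim8, a ubiquitin ligase receptor that marks Argonaute for decay when a target directs it, stood at 11.9 and 14.1 CPM in Scr against 7.81 and 8.28 in the knockdown, a log2 difference of -0.69 ± 0.25 (SE, 2 libraries a group). Tut4, which adds uridines to let-7 precursors, stood at 99.1 and 108 CPM in Scr against 48.0 and 87.6 in the knockdown. Its log2 difference of -0.61 was -1.11 without knockdown 2 and -0.24 without knockdown 1. Pnpt1, a mitochondrial exonuclease, stood at 148 and 142 CPM in Scr against 170 and 245 in the knockdown, and Dis3, a nuclease of the exosome, at 141 in both Scr libraries and 152 and 231 in the knockdown. Without knockdown 2 the log2 difference of Pnpt1 was 0.23, from 0.52, and that of Dis3 was 0.10, from 0.43. Lin28b, the let-7 inhibitor of fetal stem cells, had 0 counts in all libraries.

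**Figure D4:**
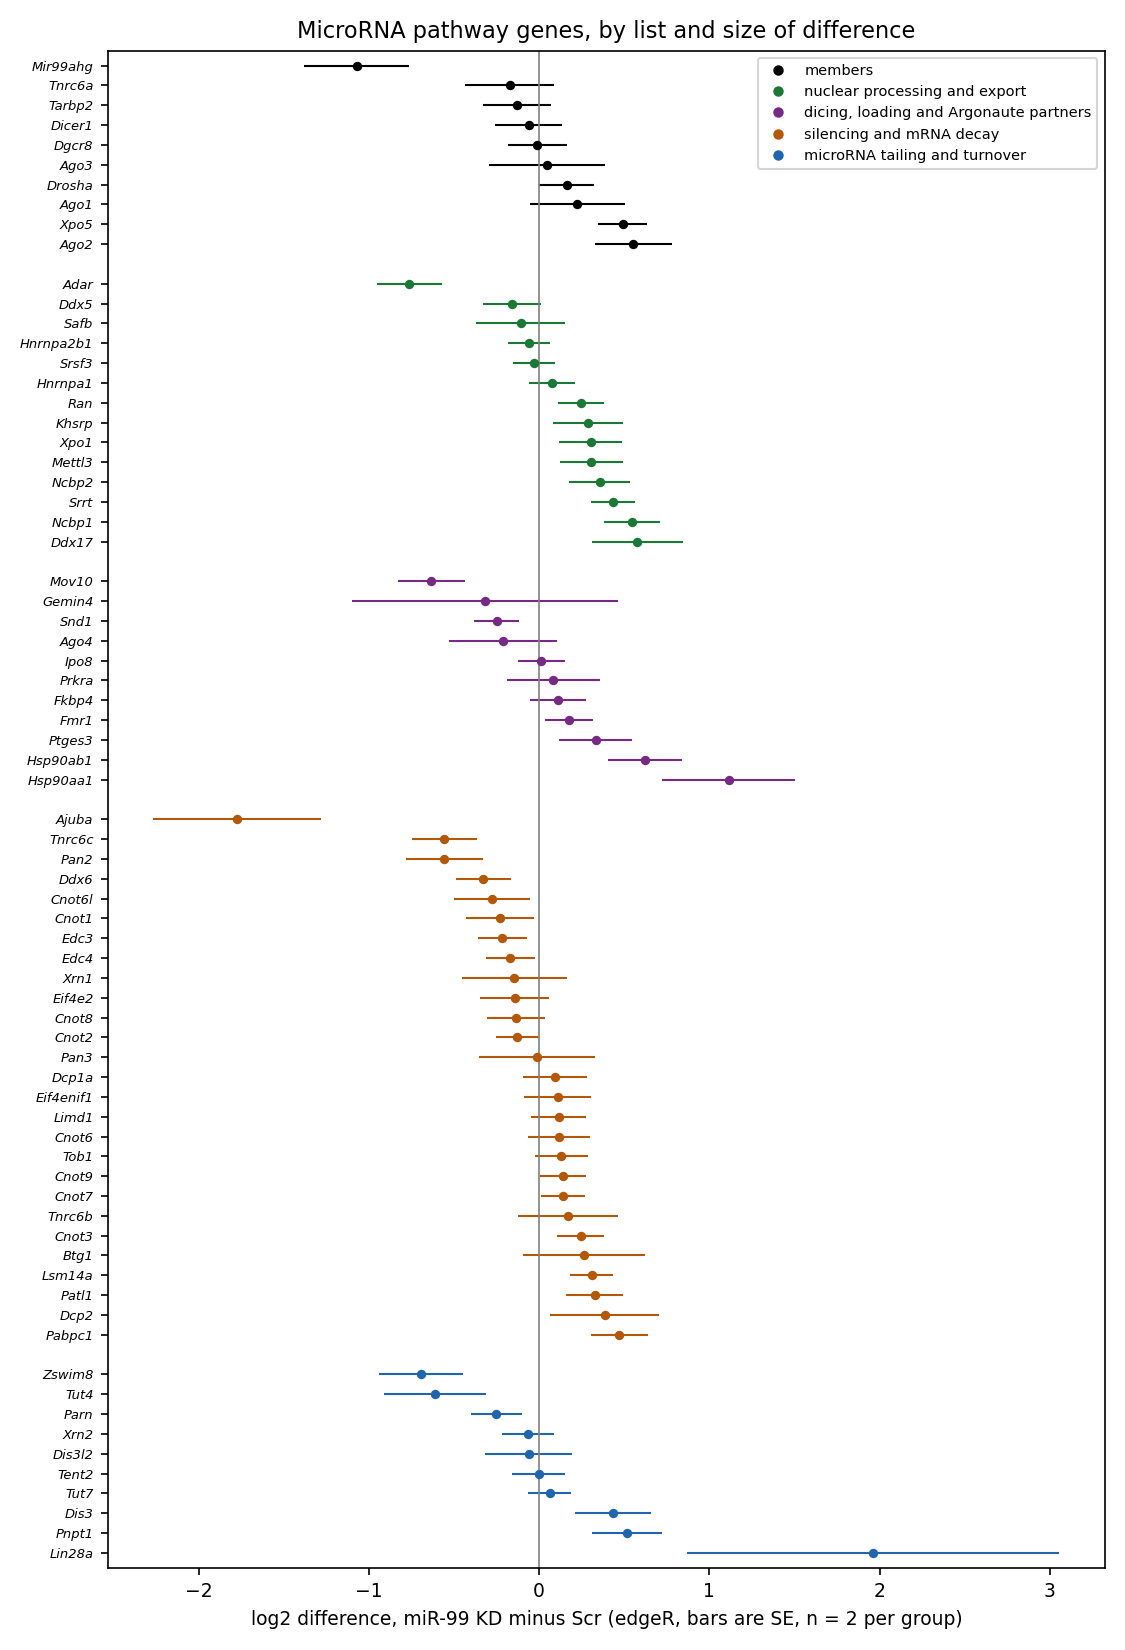
Log2 difference (miR-99 KD minus Scr, edgeR) with its SE for the 10 members and the 62 other pathway genes tested, grouped by list. Mir99ahg is the lowest member at -1.07, Xpo5 (0.49) and Ago2 (0.55) are the highest members, and among the other pathway genes only Ajuba, Hsp90aa1 and Lin28a lie farther than 1 from 0.

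Among transcripts that carry microRNAs, Mir99ahg included, 27 of 29 listed genes had a row and 23 were tested, none of which passed edgeR with all 4 libraries. At an unadjusted p under 0.05 edgeR counted 3 lower, Egfl7, Mir99ahg and Ctdsp2, and 1 higher, Dleu2, near the 9.63% and 5.97% of all genes. That count of 4 changed when a library was left out, as did the count over all genes. Without knockdown 1 the log2 difference of Egfl7 was -1.24 and that of Pank3 was 0.77. Egfl7, the host of miR-126, stood at 70.7 and 100 CPM in Scr against 49.0 and 36.3 in the knockdown, a log2 difference of -1.004 ± 0.25 (SE, 2 libraries a group), and DESeq2 called it, at an adjusted p of 0.0108. Ctdsp2, a phosphatase gene with miR-26a in an intron, stood at 42.3 and 51.4 CPM in Scr against 31.2 and 32.0 in the knockdown. Dleu2, the host of miR-15a and miR-16, stood at 10.7 and 9.41 CPM in Scr against 15.65 and 17.3 in the knockdown. Spaca6, the host of miR-99b, stood at 0.478 and 0.446 CPM in Scr against 0.190 and 0.339 in the knockdown, from 5 to 16 counts a library. The host of miR-100 had no row matched by symbol and was not analysed here. The list, Mir99ahg included, had a median log2 difference of 0.03, beside 0.02 over all genes.

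**Figure D5:**
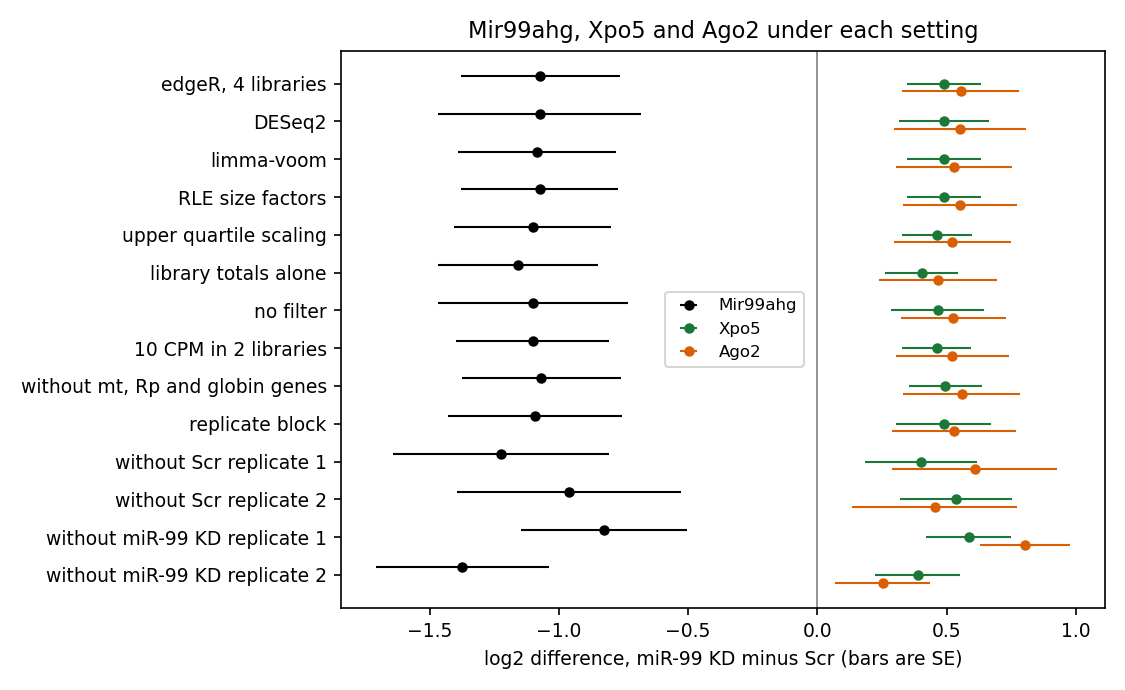
Log2 difference (miR-99 KD minus Scr) with its SE for Mir99ahg, Xpo5 and Ago2 under each setting tried, 1 row per setting. Mir99ahg stays below 0 and the other two above 0 in every setting shown, and Ago2 runs from 0.25 to 0.80 according to which knockdown library is left out.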

How the data were processed

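Each of the 4 deposited files holds the whole-number read counts of 1 library, listed by Ensembl gene. Libraries were made by SMARTer amplification of total RNA, per the labels' protocols. The submitters' processing notes name STAR, Picard, HTSeq, DESeq2 and the mouse build mm9. Tool versions, annotation and strand setting were not given in the sources used here. Rows that name no gene entered neither library sizes nor tests. Such rows held, of the reads listed per library, 8.31% to 13.8% (outside features), 18.0% to 21.9% (several alignments) and 1.16% to 1.33% (ambiguous).

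Of 45232 gene rows, 44585 matched a symbol. Lengths, introns and 3′ untranslated regions (at least 50 bases, the longest of each gene) came from GENCODE M21 on GRCm38, and microRNAs from RefSeq on GRCm38.p6. No coordinate of these builds was joined to the mm9 files.

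Low genes were removed by filterByExpr and libraries scaled by TMM. The groups were compared by edgeR's quasi-likelihood test (edgeR 4.0.16, R 4.3.3) without a replicate block, and p was adjusted by Benjamini-Hochberg over all 15320 genes, with 0.05 as the threshold. It was tested on simulated counts. Alternatives were DESeq2 1.42.0, limma-voom (limma 3.58.1), other scalings, filters, a replicate block and leaving out each library. DESeq2 left 2377 adjusted p without a value. Standard errors come from the edgeR fit. P-values test the group difference against a spread estimated from 2 mice a group, with information shared over genes.

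The members and lists were chosen with earlier results of these data known. Genes named are all members, up to 4 of each list by smallest edgeR p, the other Argonaute and Tnrc6 genes, hosts of the miR-99 family, sort markers and the 5 genes most like Mir99ahg. Trim71, Lin28a, Lin28b, Mir17hg and Pank3 were named after their values were seen.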

Additional observations from a re-analysis of the deposited data

How the results depend on the processing

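Mir99ahg, Xpo5, Ago2, Drosha and Ago1 kept the sign of their log2 difference in all 13 alternatives. The log2 difference of Mir99ahg was -1.16 with library totals alone and -0.82 to -1.37 without each library, and it passed in none. Genes called numbered 0 by edgeR, 887 by DESeq2, 1064 with no filter on low counts and 0 to 1013 without each library. Members called numbered 0, and 0 to 1 without each library, the 1 being Ago2 without miR-99 KD 1. Members at an unadjusted p under 0.05 numbered 0 to 3 without each library. Pathway genes at an unadjusted p numbered 16 with no filter on low counts and 0 to 18 without each library, and host transcripts 0 to 8. Such fits take the spread of the lone library from the group of 2. The fit that called Ago2 was also the one of these with the most calls over all genes. The call therefore does not set Ago2 apart from other genes. Scaling by library totals took the median log2 difference of all genes from 0.0163 to -0.0706 and raised the lower genes among those at an unadjusted p from 1475 of 2390 to 1898 of 2401.

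Members near 0 changed sign. Dgcr8 was 0.0033 by limma-voom and -0.18 to 0.14 without each library. Ago3 was -0.019 by limma-voom, -0.041 with library totals alone and -0.46 to 0.42 without each library. Without each library Dicer1 ran from -0.29 to 0.14, Tarbp2 from -0.31 to 0.022 and Tnrc6a from -0.46 to 0.13. The cause of these changes was not tested. Deviations from the group means correlated at 0.0952 over genes between libraries of equal number. With 2 libraries a group the deviations within a group mirror each other, so the 2 pairs are not independent. No pairing of mice was assumed. Under a replicate block no gene passed edgeR, which counted 2049 genes at an unadjusted p, Mir99ahg was -1.09, at an adjusted p of 0.251, and Ago3 was -0.019. With 132 to 411 counts of Mir99ahg a library, the spread between 2 mice limits its precision.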

Other observations

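Lin28a, which blocks the maturation of let-7, stood at 11.6 CPM in miR-99 KD 1 and at 1.85, 1.37 and 0.979 CPM in Scr 1, Scr 2 and miR-99 KD 2. Its 307 counts in miR-99 KD 1 compare with 26 to 62 in the other libraries, and the groups overlapped. Its log2 difference turned on miR-99 KD 1, at 1.96 with all 4 libraries (edgeR adjusted p of 0.431). Leaving that library out gave -0.72, and leaving out miR-99 KD 2 instead gave 2.85. The library miR-99 KD 1 also held the highest level of each of the 12 neutrophil and 12 B cell markers, and the part of those cells in the Lin28a value was not tested. Mir17hg, the host of the miR-17 to miR-92 cluster and chosen after its values were seen, was lowest in miR-99 KD 1, at 17.3 CPM, beside 34.3 in miR-99 KD 2 and 29.7 and 40.8 in Scr.

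Below the gene rows, the deposited files carry pasted totals with names of their own. The total of miR-99 KD 1 stands under the name Zip99a-2, that of miR-99 KD 2 under Zip99a-1 and that of Scr 1 under Scr-2, so in these 3 files the number differs from that of the label, and no name stands above the total of Scr 2. The replicate numbers used for the block and the pairing are those of the labels. By the pasted names Scr 1 and miR-99 KD 1 also share a number, so that pair is the same under either naming. The file of miR-99 KD 2 also holds a total of 29793890 under a Scr name, which is the gene total of none of the 4 libraries.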
